A study of Mus musculus with 8 samples.

Results

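Fatty acid synthesis turns acetyl units derived from glucose into long-chain fat. The 10 genes described here code for this route and its control. They were chosen by name as the genes of de novo lipogenesis, Acly, Acaca, Acacb, Fasn, Scd1, Scd2, Elovl6, Me1, Thrsp and Mlxipl, and are 10 of the 51789 genes in the count table. All 10 had enough counts to be tested. They were followed in the mammary glands of female C57BL/6 mice that had received 1 injection of small extracellular vesicles (sEVs) into the abdominal gland, and the tissue was taken 6 weeks later. The vesicles came from the metastatic mouse mammary tumor line AT3, an adenocarcinoma, kept in normoxia (sEVNORM, 3 libraries) or in hypoxia (sEVHYP, 2 libraries). Control glands received a preparation from medium that no cell had conditioned (sEVCTRL, 3 libraries). The sources used here give no age for these mice, and the sEVs came from a single tumor line. Each library is whole-gland poly(A) RNA, so fat, epithelium, muscle and blood cells are read together, and fewer cells of a type cannot be told apart from less RNA per cell.

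In the cytosol, ATP citrate lyase (Acly) splits citrate exported from mitochondria into acetyl-CoA, acetyl-CoA carboxylase turns part of it into malonyl-CoA, and fatty acid synthase (Fasn) joins these units into palmitate with NADPH that malic enzyme (Me1) helps to supply. The elongase Elovl6 lengthens palmitate, and the stearoyl-CoA desaturases (Scd1, Scd2) place a double bond in the product. The transcription factors ChREBP, the product of Mlxipl, and SREBP-1, the product of Srebf1, raise these enzymes after carbohydrate feeding and insulin, and Thrsp (Spot 14) is a nuclear protein induced along with them. The pathway is active in fat, liver and, during lactation, in the milk-producing epithelium. Outside lactation the gland is mostly a fat pad with epithelial ducts in it.

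Transcription factors that drive this pathway read short DNA motifs close to the start of their target genes. The stretches directly before the start of Acly, Fasn and Mlxipl are shown because Acly and Mlxipl are the members that differed in both comparisons of sEVHYP, and Fasn is the central enzyme. They are from RefSeq on GRCm38.p6, read 5′ to 3′ on the strand of the gene, and end at the base before the start. RefSeq windows were matched for 8 of the 10 members, with 10 windows in all because Me1 and Mlxipl have 2 starts each. Capitals mark the motifs searched on both strands, which were the E-box CACGTG bound by ChREBP and other factors, the sterol regulatory element TCACNCCAC, the NF-Y box CCAAT, the GC box GGGCGG and the hypoxia response element core ACGTG. The last of these lies within the E-box, so every E-box also holds it.
Acly, chr11:100528001-100528140, minus strand: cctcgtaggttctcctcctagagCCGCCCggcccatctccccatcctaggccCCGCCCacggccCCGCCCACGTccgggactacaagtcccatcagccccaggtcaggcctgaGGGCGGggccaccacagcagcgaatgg
Fasn, chr11:120824548-120824687, minus strand: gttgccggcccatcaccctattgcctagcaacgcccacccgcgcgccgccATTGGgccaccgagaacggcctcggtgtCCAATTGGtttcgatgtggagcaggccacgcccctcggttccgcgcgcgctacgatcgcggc
Mlxipl, upstream start, chr5:135089750-135089889, plus strand: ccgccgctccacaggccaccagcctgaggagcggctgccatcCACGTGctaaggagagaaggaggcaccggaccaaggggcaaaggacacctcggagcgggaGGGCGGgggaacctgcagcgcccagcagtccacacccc
Mlxipl, downstream start, chr5:135106751-135106890, plus strand: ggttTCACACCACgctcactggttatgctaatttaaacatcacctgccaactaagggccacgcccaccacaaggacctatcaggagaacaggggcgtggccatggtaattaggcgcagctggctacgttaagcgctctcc
The start of Acly was preceded by 4 GC boxes and 1 ACGTG core, which overlaps a GC box. Fasn had 3 NF-Y boxes, of which the last 2 overlap on opposite strands 62 to 55 bases before the start. The upstream start of Mlxipl had an E-box 98 to 93 bases before it, and the downstream start, 17001 bases further on, had a sterol regulatory element 136 to 128 bases before it. Over all 32851 RefSeq windows of 250 bases before a start, 6.02% held an E-box, 1.05% the sterol regulatory element, 33.8% an NF-Y box, 32.7% a GC box and 16.6% an ACGTG core. Of the 10 member windows, 1 held an E-box, 1 the sterol regulatory element, 5 an NF-Y box, 3 a GC box and 4 an ACGTG core. The full carbohydrate response element CACGNGNNNNNCNCGTG and the LXR repeat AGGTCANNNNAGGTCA were in none of these 10 windows and in 0.0396% and 0.0152% of all windows. Some of the member windows are not wholly sequence before a gene. Those of Acacb, Elovl6 and Thrsp hold 9, 129 and 180 bases of annotated exons, and that of the Me1 start at 86695914 holds 39. The RefSeq starts of Acaca (84195438) and Acacb (114165518) lie inside the annotated genes, which begin at 84129672 and 114146535. A match of letters describes the window and does not show that a factor binds there.

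The deposited values are counts that RSEM estimated per gene, 18194996 to 24622569 in all per library. They are given here as CPM, counts scaled by TMM to one common library size. Groups were compared with edgeR's quasi-likelihood test in one model of all 8 libraries, with an unadjusted P of 0.05, the threshold that the study names, as the mark for a call. No gene passed an adjusted P of 0.05 by edgeR in any of the 3 comparisons, so every call below is on the unadjusted P unless DESeq2 is named. Between sEVHYP and sEVNORM, 402 genes were higher and 304 lower at an unadjusted P of 0.05 by edgeR, and DESeq2 on all 8 libraries called 16 genes at an adjusted P of 0.05. Both comparisons of sEVHYP use the same 2 libraries and are not independent of each other. Labels do not say whether replicates came from separate animals, and the study's text gives 2 to 3 animals per group. P-values measure only the spread between these libraries. Annotated genes on the opposite strand overlap Acaca, Acacb, Elovl6, Me1 and Mlxipl, and where counting did not use the strand their reads cannot be told apart.

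The fitted levels of the fatty acid synthesis genes were higher in sEVHYP glands than in sEVNORM glands, and 3 of the 10 genes passed the test. The fitted level was higher for 10 of the 10 members, with a median log2 fold change of 1.01, where 47.0% of all 17858 genes tested were higher and their median was -0.02. Mlxipl, Acly and Scd2 passed the unadjusted P of 0.05 in the direction of sEVHYP, which 2.25% of all genes did. Against sEVCTRL, 9 of the 10 members were higher, with a median of 0.64, where 47.5% of all genes were higher. Mlxipl and Acly passed there, a call that 1.39% of all genes reached in that direction. Between sEVNORM and sEVCTRL, the fitted level of all 10 members was lower in sEVNORM, with a median of -0.23, where 50.2% of all genes were lower. None of the 10 passed, against 1.62% of all genes in either direction.

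**Figure D1:**
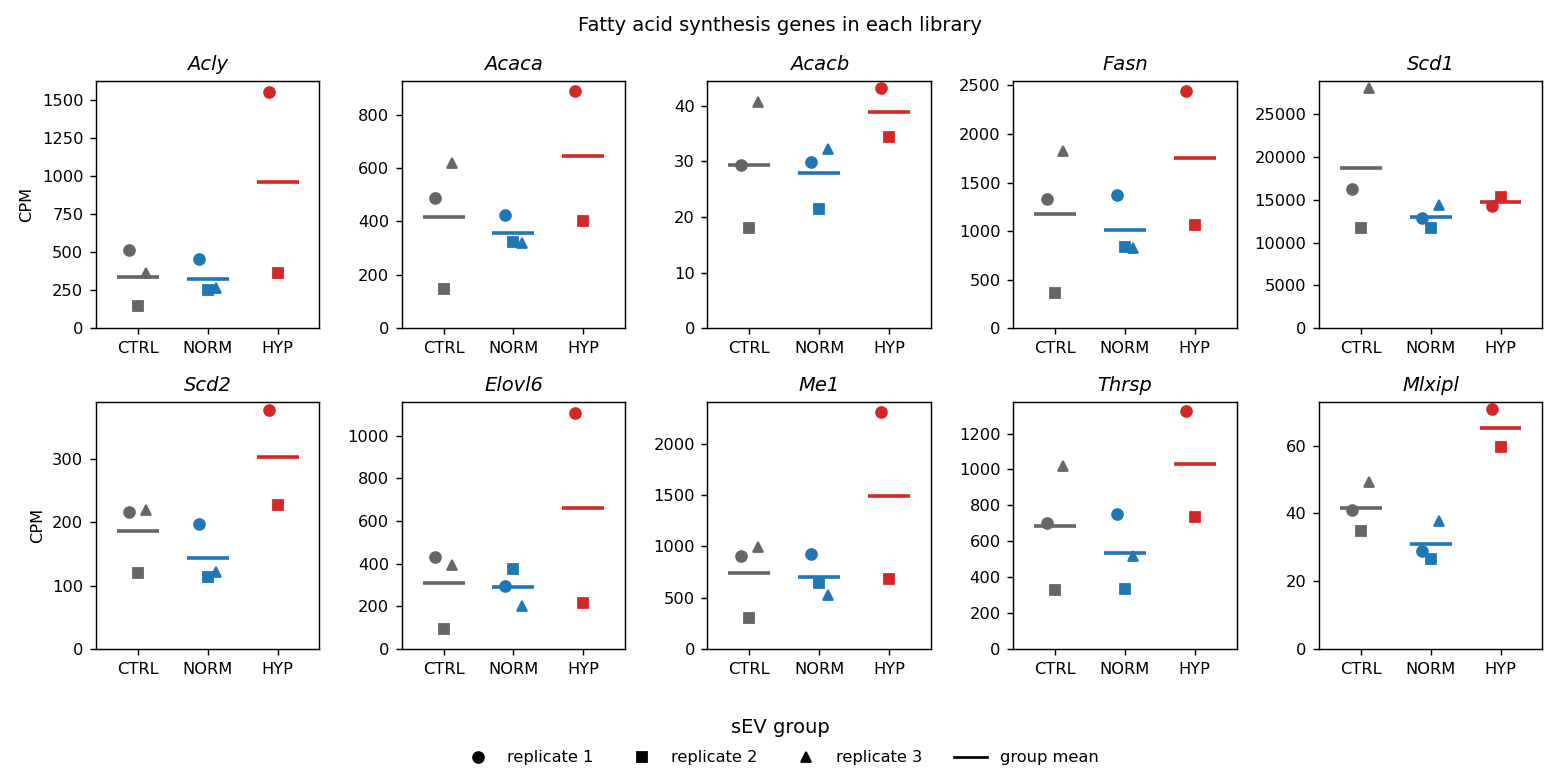
CPM of the 10 fatty acid synthesis genes (vertical axes, each starting at 0) in the sEVCTRL, sEVNORM and sEVHYP groups, with 1 point per library and a bar at the group mean. The first sEVHYP library is the highest point for 9 of the 10 genes, and both sEVHYP points stand above all others for Scd2 and Mlxipl.

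The 2 sEVHYP glands were far apart. Replicate 1 held the highest level of all 8 libraries for 9 of the 10 members, and its level over that of replicate 2 ranged from 0.932 times for Scd1 to 5.13 times for Elovl6. Replicate 2 lay inside the range of the other 6 libraries for all members but Scd2 and Mlxipl. Without sEVHYP replicate 1, the median log2 fold change against sEVNORM was 0.21, 8 members were higher and 1, Mlxipl, passed. Without it, none passed against sEVCTRL, and 5 members were higher. Without sEVHYP replicate 2, the median log2 fold change against sEVNORM was 1.31. At the low end, sEVCTRL replicate 2 had the lowest level for 7 members and sEVNORM replicate 2 for the other 3. Without sEVCTRL replicate 2, 6 members passed between sEVHYP and sEVNORM, and 1, Mlxipl, between sEVHYP and sEVCTRL. The share of all genes that passed without 1 library is not given here. Member counts in these fits therefore have no background beside them.

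The regulators come first. Mlxipl (chromosome 5, 135089890 to 135138382, plus strand, GRCm38) codes for ChREBP, the factor that responds to glucose metabolites. Its level was 40.9, 34.7 and 49.3 CPM in the sEVCTRL libraries, 29.0, 26.5 and 37.8 CPM in the sEVNORM libraries, and 70.7 and 59.7 CPM in the sEVHYP libraries. Both sEVHYP glands stood above all the other 6, and the sEVNORM glands overlapped the sEVCTRL glands at their lower end. Mlxipl was 2.1 times higher in sEVHYP than in sEVNORM (log2 fold change 1.07, SE 0.21, 95% confidence interval 0.60 to 1.54, unadjusted P = 0.000628, edgeR adjusted P = 1.00). Against sEVCTRL the log2 fold change was 0.65 (SE 0.21, interval 0.17 to 1.12, unadjusted P = 0.013). The call against sEVNORM was made in 17 of 17 alternative analyses, with log2 fold changes of 0.94 to 1.23. The call against sEVCTRL was lost without sEVHYP replicate 1 (log2 fold change 0.52, unadjusted P = 0.0932). DESeq2 gave Mlxipl an adjusted P of 0.0287 against sEVNORM on all 8 libraries, a mark that 0.0648% of genes with a DESeq2 adjusted P reached. On only the 2 groups compared, its adjusted P was 0.00369, with 0.499% of genes past 0.05. Against sEVCTRL the DESeq2 adjusted P was 1.00 in both fits. Between sEVNORM and sEVCTRL, Mlxipl had a log2 fold change of -0.42 (interval -0.85 to 0.01, unadjusted P = 0.054), just outside the mark, and it passed in 5 of 17 alternatives.

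Thrsp (chromosome 7, 97412938 to 97417730, minus strand) was measured at 700, 330 and 1018 CPM in sEVCTRL, at 750, 337 and 519 CPM in sEVNORM and at 1327 and 736 CPM in sEVHYP. The first sEVHYP gland was the highest of all, and the second lay below sEVNORM replicate 1 and sEVCTRL replicate 3. The log2 fold change was 0.95 against sEVNORM (interval -0.13 to 2.02, unadjusted P = 0.0774) and 0.60 against sEVCTRL (interval -0.48 to 1.67, unadjusted P = 0.243), and neither passed. Its close relative Mid1ip1, which codes for a Spot 14-like protein known to promote polymerization of acetyl-CoA carboxylase, had 18.7, 11.5 and 16.5 CPM in sEVCTRL, 15.0, 12.2 and 12.4 CPM in sEVNORM and 37.2 and 19.5 CPM in sEVHYP. Both sEVHYP libraries were above all others for Mid1ip1, the second only just. Mid1ip1 was higher in sEVHYP against sEVNORM (log2 fold change 1.10, unadjusted P = 0.00476) and against sEVCTRL (0.87, unadjusted P = 0.0171). Both calls were lost without sEVHYP replicate 1, at 0.56 and 0.33.

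Srebf1, which codes for the insulin-responsive factor SREBP-1, had 38.5, 32.6 and 53.7 CPM in sEVCTRL, 38.1, 36.6 and 45.4 CPM in sEVNORM, and 71.6 and 63.9 CPM in sEVHYP. As for Mlxipl, both sEVHYP glands stood above all the other 6. The log2 fold change was 0.76 against sEVNORM (SE 0.22, unadjusted P = 0.0067, called in 17 of 17 alternatives). Against sEVCTRL it was 0.70 (SE 0.22, unadjusted P = 0.0101), and without sEVHYP replicate 1 it was 0.62 and did not pass (unadjusted P = 0.0604). Insig1, a target of SREBP that holds SREBP back in the endoplasmic reticulum, was higher in sEVHYP by 1.05 against sEVNORM (unadjusted P = 0.0147) and by 0.82 against sEVCTRL (unadjusted P = 0.0422) on the log2 scale. Without sEVHYP replicate 1 these values were 0.65 and 0.42 and did not pass, and the second was also lost without sEVCTRL replicate 1 (0.85), sEVCTRL replicate 2 (0.53) or any 1 of the sEVNORM libraries (0.82). The sterol-responsive partner Srebf2, the SREBP escort Scap and the oxysterol receptor Nr1h3 had log2 fold changes of 0.07, -0.14 and 0.04 against sEVNORM, and none passed.

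**Figure D2:**
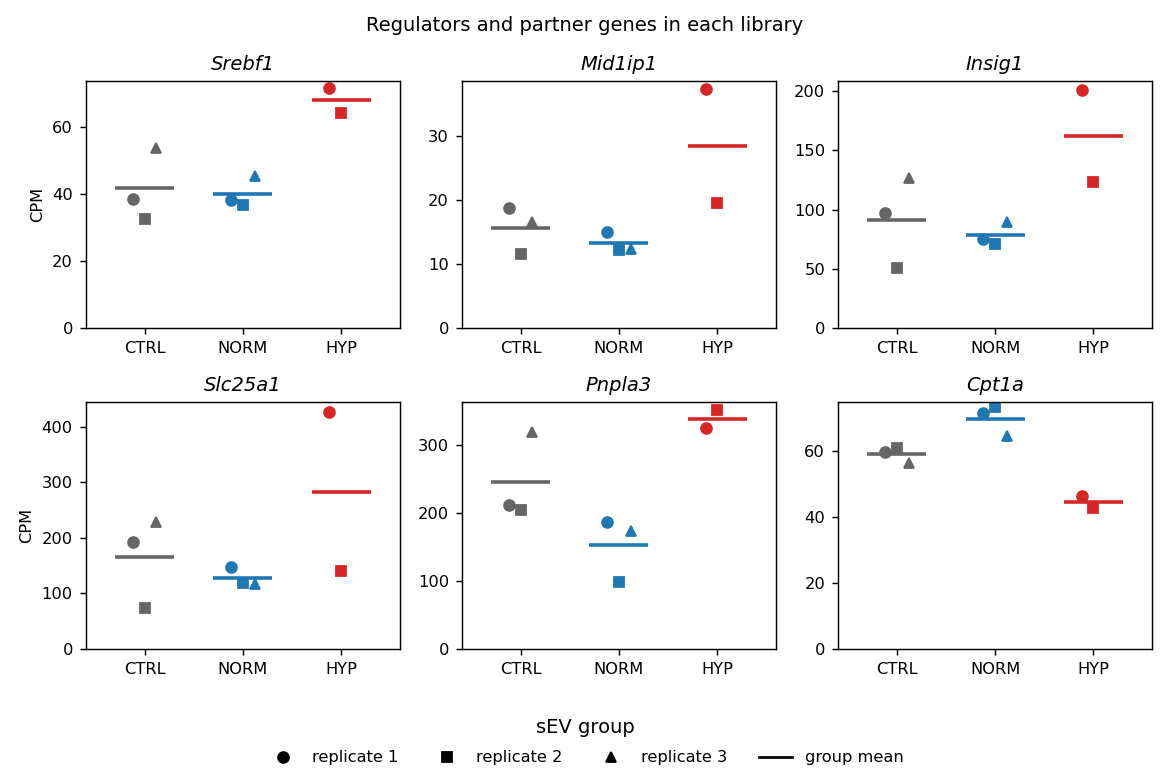
CPM of Srebf1, Mid1ip1, Insig1, Slc25a1, Pnpla3 and Cpt1a (vertical axes from 0) in each library, grouped as sEVCTRL, sEVNORM and sEVHYP, with a bar at the group mean. Both sEVHYP points lie above all others for Srebf1, Mid1ip1 and Pnpla3, and below all others for Cpt1a.

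Next come the enzymes that supply acetyl-CoA and NADPH. Acly (chromosome 11, 100476353 to 100528000, minus strand), whose promoter is shown above, was at 512, 146 and 361 CPM in sEVCTRL, at 456, 250 and 267 CPM in sEVNORM, and at 1554 and 363 CPM in sEVHYP. Replicate 1 of sEVHYP was far above every other library, while replicate 2 lay below 2 of the other 6 libraries. Acly had the largest fitted difference of the 10 members, a log2 fold change of 1.56 against sEVNORM (SE 0.62, interval 0.16 to 2.97, unadjusted P = 0.0325) and of 1.50 against sEVCTRL (interval 0.10 to 2.90, unadjusted P = 0.0388). Without sEVHYP replicate 1 the values were 0.17 and 0.10, and neither passed. The first call was also lost without sEVCTRL replicate 3 (1.56), sEVNORM replicate 2 (1.41) or sEVNORM replicate 3 (1.44), and the second without sEVCTRL replicate 2 (1.14) or sEVCTRL replicate 3 (1.54). The second was lost as well with the adipocyte covariate (1.33) and on only the 2 groups compared, with DESeq2 (1.48) or edgeR (1.50).

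Me1 (chromosome 9, 86581371 to 86695953, minus strand), which codes for cytosolic malic enzyme, was at 909, 301 and 998 CPM in sEVCTRL, at 927, 641 and 530 CPM in sEVNORM, and at 2308 and 682 CPM in sEVHYP. The pattern was that of Acly, with a high first sEVHYP gland and a second one inside the range of the other groups. The log2 fold change was 1.10 against sEVNORM (interval -0.19 to 2.39, unadjusted P = 0.0868) and 1.02 against sEVCTRL (interval -0.27 to 2.31, unadjusted P = 0.107). Its sign turned when sEVHYP replicate 1 was left out, to -0.04 and -0.11. Of its 50-base stretches, 22.9% also occur in the processed copies Gm7049 and Gm7329, to which 0.818% to 2.05% and 2.95% to 6.71% as many counts as to Me1 were assigned, so its level has this uncertainty.

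Of the other genes that supply carbon and NADPH, 7 of 20 tested were higher in sEVHYP than in sEVNORM on the unadjusted P and none was lower. Over all genes tested, 2.25% were higher and 1.70% lower. The median of this list was 0.51, beside -0.02 over all genes. Against sEVCTRL 3 were higher (Dlat, Aacs and Slc16a1) and none lower, with a median of 0.29, where 1.39% of all genes were higher and 1.06% lower. Slc25a1, the mitochondrial citrate carrier that feeds Acly, was at 193, 74.1 and 228 CPM in sEVCTRL, 148, 119 and 117 CPM in sEVNORM and 427 and 140 CPM in sEVHYP. It just passed against sEVNORM (log2 fold change 1.14, unadjusted P = 0.0489) and not without sEVHYP replicate 1 (0.13), any 1 of the sEVNORM libraries (1.08 to 1.26), sEVCTRL replicate 1 (1.16) or sEVCTRL replicate 3 (1.14). Hexokinase 2 (Hk2), the first step of glucose use in fat and muscle, was higher by 0.76 on the log2 scale against sEVNORM (unadjusted P = 0.00261, called in 17 of 17 alternatives). Against sEVCTRL its log2 fold change was 0.27 (interval -0.15 to 0.69, unadjusted P = 0.18 in edgeR) and did not pass. Hk2 was at 41.2 and 44.2 CPM in sEVHYP, 34.5 to 36.6 CPM in sEVCTRL and 20.3 to 30.6 CPM in sEVNORM. It was lower in sEVNORM than in sEVCTRL (log2 fold change -0.49, unadjusted P = 0.0171). That last call was lost without sEVNORM replicate 1 (-0.47) or sEVNORM replicate 2 (-0.36). Dlat, the acetyltransferase of pyruvate dehydrogenase, was higher by 0.57 (unadjusted P = 0.00789) and 0.50 (unadjusted P = 0.0157) against sEVNORM and sEVCTRL, and without sEVHYP replicate 1 by 0.39 and 0.32, which did not pass. In the pentose phosphate pathway, Pgd differed by 0.75 against sEVNORM (unadjusted P = 0.0348) and G6pdx by 0.30 (interval -0.40 to 1.00, unadjusted P = 0.357). Pgd did not pass without sEVHYP replicate 1 (0.33), sEVNORM replicate 2 (0.76) or sEVNORM replicate 3 (0.65).

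The carboxylases make malonyl-CoA. Acaca (chromosome 11, 84129672 to 84401651, plus strand) codes for the cytosolic form used in synthesis, and was at 487, 149 and 619 CPM in sEVCTRL, 424, 324 and 319 CPM in sEVNORM, and 889 and 401 CPM in sEVHYP. Acacb (chromosome 5, 114146535 to 114250761, plus strand) codes for the form at the mitochondrial outer membrane, whose malonyl-CoA restrains fatty acid oxidation, and was at 29.4, 18.1 and 40.7 CPM in sEVCTRL, 29.9, 21.4 and 32.3 CPM in sEVNORM, and 43.2 and 34.4 CPM in sEVHYP. For Acacb both sEVHYP glands stood above all sEVNORM glands, a position that 12.3% of all genes had, and sEVCTRL replicate 3 lay between them. The log2 fold change against sEVNORM was 0.86 for Acaca (interval -0.32 to 2.04, unadjusted P = 0.133). It was 0.48 for Acacb (interval -0.24 to 1.20, unadjusted P = 0.166). Against sEVCTRL the values were 0.63 and 0.40, and neither passed. The CPM of Acaca was 16.6, 8.23 and 15.2 times that of Acacb in sEVCTRL, 14.2, 15.1 and 9.89 times in sEVNORM, and 20.6 and 11.7 times in sEVHYP, so the groups overlapped in this ratio. Other genes hold 30.4% of the 50-base stretches of Acaca, among them the copy Gm5182, which received 3.35% to 4.51% as many counts as Acaca.

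Fasn (chromosome 11, 120805846 to 120824547, minus strand), the synthase itself, was at 1327, 366 and 1830 CPM in sEVCTRL, 1368, 834 and 826 CPM in sEVNORM, and 2442 and 1067 CPM in sEVHYP. The second sEVHYP library was below 3 of the other 6, and the groups overlapped widely. Fasn differed by a log2 fold change of 0.80 against sEVNORM (interval -0.53 to 2.12, unadjusted P = 0.206), 0.58 against sEVCTRL (interval -0.75 to 1.91, unadjusted P = 0.35) and -0.22 between sEVNORM and sEVCTRL (interval -1.42 to 0.98). These intervals hold both no difference and a difference of several times, so they do not show that the groups are alike.

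**Figure D3:**
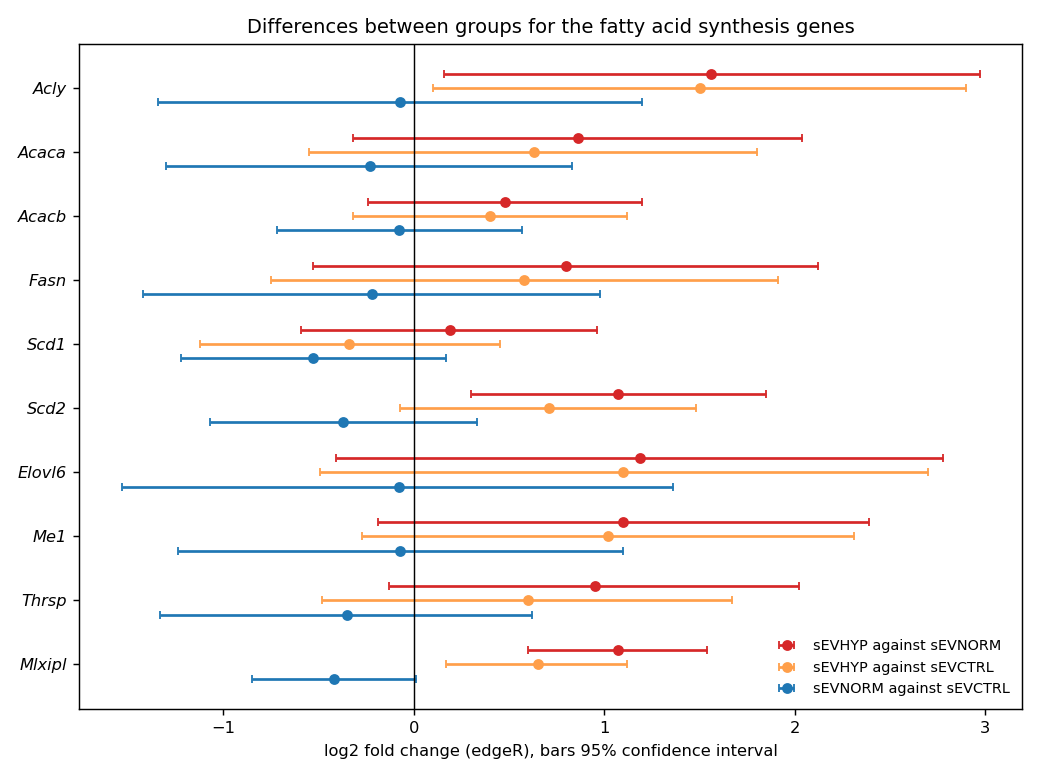
Log2 fold change of each fatty acid synthesis gene (horizontal axis) from edgeR for the 3 comparisons, with bars for the 95% confidence interval and a line at 0. Only the intervals of Acly and Mlxipl for both sEVHYP comparisons and of Scd2 against sEVNORM leave out 0.

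Elovl6 (chromosome 3, 129532355 to 129638495, plus strand), which extends palmitate to stearate, was at 433, 95.4 and 396 CPM in sEVCTRL, 294, 376 and 203 CPM in sEVNORM, and 1109 and 216 CPM in sEVHYP. It was the member on which the sEVHYP glands differed most, and replicate 2 lay below 4 of the other 6 libraries. Its log2 fold change was 1.19 against sEVNORM (interval -0.41 to 2.78, unadjusted P = 0.126) and 1.10 against sEVCTRL (unadjusted P = 0.152). It was -0.43 and -0.51 when sEVHYP replicate 1 was left out.

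The desaturase genes are neighbours on chromosome 19. Scd1 (44394455 to 44407879, minus strand), the main form in adult fat and liver, was at 16274, 11715 and 28020 CPM in sEVCTRL, 12816, 11662 and 14437 CPM in sEVNORM, and 14258 and 15298 CPM in sEVHYP. Scd2 (44293674 to 44306864, plus strand), the form known from brain and early life, was at 216, 120 and 220 CPM in sEVCTRL, 197, 114 and 121 CPM in sEVNORM, and 377 and 228 CPM in sEVHYP. For Scd1 the sEVHYP glands lay in the middle of the other libraries, and it was the only member for which sEVHYP replicate 1 was below replicate 2. For Scd2 they lay above all 6 other libraries. Standing above all sEVCTRL libraries, as Scd2 and Mlxipl did, was the case for 6.70% of all genes. Scd2 was higher in sEVHYP than in sEVNORM (log2 fold change 1.07, SE 0.34, interval 0.30 to 1.85, unadjusted P = 0.0117). Without sEVHYP replicate 1 the value was 0.67 and did not pass (unadjusted P = 0.129). Against sEVCTRL it was 0.71 (interval -0.07 to 1.48, unadjusted P = 0.0687). Scd1 differed by 0.19 against sEVNORM (interval -0.59 to 0.96, unadjusted P = 0.596) and by -0.34 against sEVCTRL (interval -1.12 to 0.45, unadjusted P = 0.356). Scd1 CPM was 75.4, 97.2 and 127 times that of Scd2 in sEVCTRL, 65.1, 102 and 120 times in sEVNORM, and 37.8 and 67.0 times in sEVHYP, and the second sEVHYP value fell inside the range of sEVNORM. Both genes share stretches of 50 bases with each other and with Scd3 and Scd4, 4.56% of those of Scd1 and 3.97% of those of Scd2.

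Scd1 dominated the pathway. It made up 1.17% to 2.8% of all counts in a library and 58.5% (sEVHYP replicate 1) to 88.2% (sEVCTRL replicate 2) of the summed CPM of the 10 members. Per kilobase of the principal transcript, the order of mean levels in sEVCTRL and in sEVNORM was Scd1, Thrsp, Me1, Fasn, Acly, Elovl6, Acaca, Scd2, Mlxipl and Acacb. In the sEVHYP means, Acly came before Fasn and the rest of the order was as in the other groups. This swap came from replicate 1, since in replicate 2 Fasn (106 per kilobase) was above Acly (82.7). On this scale of CPM per kilobase, the mean of Scd1 was 3864 in sEVCTRL, 2684 in sEVNORM and 3058 in sEVHYP, and that of Thrsp, second in the order, was 535, 419 and 808. Scd1 was above Thrsp, Scd2 above Mlxipl and Mlxipl above Acacb in all libraries of each group. Across the libraries of a group, the ranges of the neighbours from Thrsp to Scd2 overlapped, except for Me1 and Fasn in sEVNORM. Overlap of these ranges does not show that the order changed within a library.

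The levels of the members varied largely together from gland to gland. Averaged over the 10 members, the log2 CPM relative to the mean of the 8 libraries was 0.21, -1.04 and 0.45 in sEVCTRL, 0.04, -0.45 and -0.35 in sEVNORM, and 1.10 and 0.04 in sEVHYP. Acaca followed this mean profile most closely, with a root mean square difference of 0.163 over the 8 libraries. Scd1 (0.527), Elovl6 (0.498), Mlxipl (0.425) and Acly (0.421) were the members farthest from it. Among all genes tested outside the 10, the 8 nearest to the mean profile by this measure were Acat2, Slc25a1, Pgd, Pth1r, Gpd1, Fdps, Insig1 and Tlcd2, with differences of 0.153 to 0.211. Acat2 and Fdps code for enzymes of cholesterol synthesis, Gpd1 for the enzyme that makes glycerol 3-phosphate, and Pth1r for the parathyroid hormone receptor. The 8 points share the 3 groups and the same normalization, so this is a description.

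**Figure D4:**
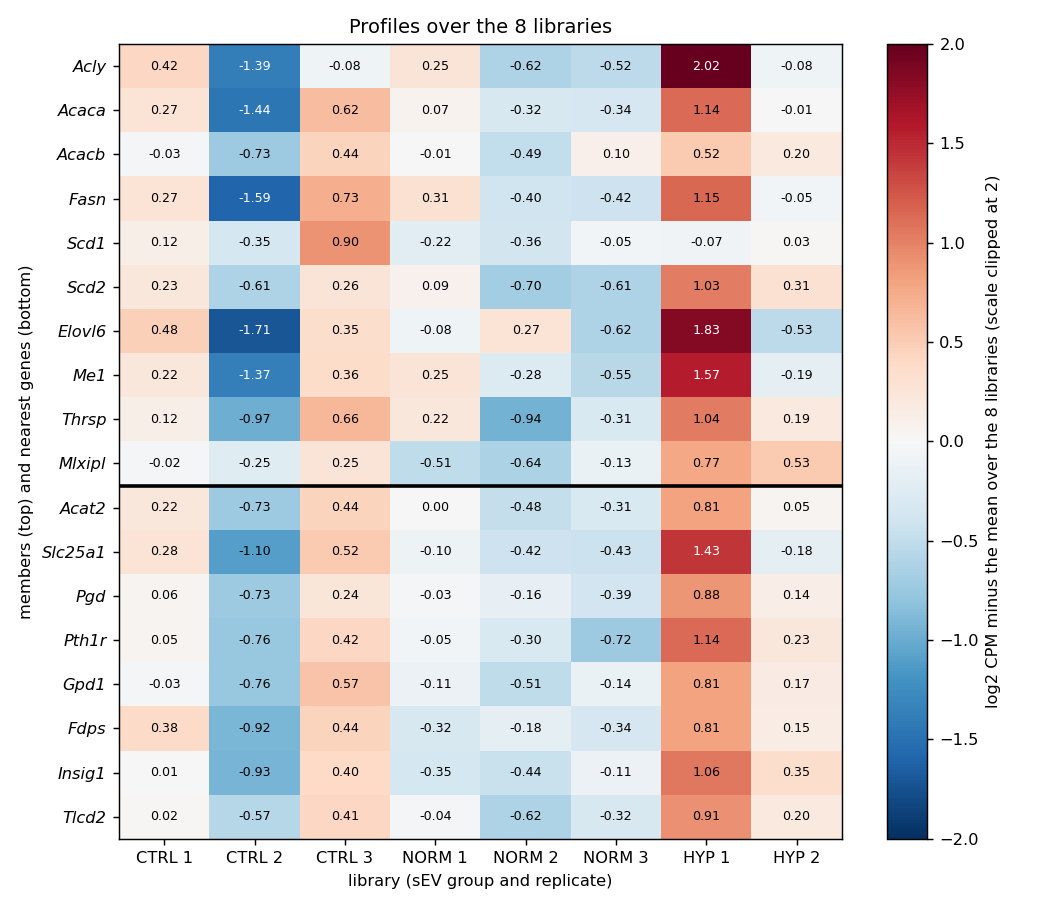
Log2 CPM minus the gene's mean over the 8 libraries, by color and printed value, for the 10 fatty acid synthesis genes (top) and the 8 genes nearest to their mean profile (bottom), with 1 column per library. HYP 1 is the darkest red column for most genes and CTRL 2 the darkest blue one, while HYP 2 is close to 0 for Acly, Acaca, Fasn and Scd1 and is above 0 for Scd2 and Mlxipl.

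Other steps of fat metabolism were compared by list, beside a median of -0.02 over all genes in both comparisons of sEVHYP. Of all genes, 2.25% were higher in sEVHYP than in sEVNORM and 1.39% than in sEVCTRL, and the counts of higher genes in each list stand beside these shares. Of the 28 other regulators of lipogenesis listed, 5 were higher in sEVHYP than in sEVNORM and 3 than in sEVCTRL, with medians of 0.07 and 0.05. They were Mid1ip1, Srebf1 and Insig1 in both, and against sEVNORM also Prkaa2 and Prkab2, subunits of AMPK, the kinase that restrains acetyl-CoA carboxylase. Prkaa2 was at 21.9, 99.8 and 32.7 CPM in sEVCTRL, 38.8, 16.2 and 41.2 CPM in sEVNORM, and 64.0 and 111 CPM in sEVHYP, and its highest libraries, sEVHYP replicate 2 and sEVCTRL replicate 2, also had the highest skeletal muscle marker sums (16695 and 11875 CPM). With the muscle marker level as a covariate, the log2 fold change against sEVNORM was 0.49 for Prkaa2 in place of 1.45 and 0.58 for Prkab2 in place of 1.01, and neither passed. Neither passed without sEVHYP replicate 2, at 0.98 for Prkaa2 and 0.28 for Prkab2. The muscle markers themselves had a median log2 fold change of 2.36 between sEVHYP and sEVNORM. The covariate fit therefore cannot tell muscle content from treatment, and the part of muscle in these calls was not tested.

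Of 18 tested genes of chain elongation and desaturation, 2 were higher against sEVNORM (Tecr and Hacd1) and 1 against sEVCTRL (Hsd17b12), with medians of 0.13 and 0.16, and Elovl5, Fads1 and Fads2 did not pass in either. Of 21 genes of fatty acid activation and triglyceride assembly, 4 were higher against sEVNORM (Acsl6, Agpat2, Dgat2 and Acsl3) and 1 against sEVCTRL (Gpat3), with medians of 0.25 and 0.15. Acsl6 had few counts, 7, 36 and 8 in sEVCTRL, 14, 2 and 8 in sEVNORM, and 42 and 45 in sEVHYP. Outside sEVHYP its highest library was sEVCTRL replicate 2 (1.64 CPM), which there also had the highest muscle marker sum (11875 CPM). The part of muscle in this call was not tested. Dgat2, which completes the triglyceride, was at 265, 183 and 427 CPM in sEVCTRL, 271, 146 and 206 CPM in sEVNORM, and 474 and 319 CPM in sEVHYP. Its log2 fold change against sEVNORM was 0.93 (unadjusted P = 0.0323), and it did not pass without sEVHYP replicate 1 (0.62), sEVNORM replicate 2 (0.73) or sEVNORM replicate 3 (0.93). No gene of these lists was lower in sEVHYP on the unadjusted P. In both comparisons of sEVHYP, the share of genes lower on this mark was 1.70% (against sEVNORM) and 1.06% (against sEVCTRL) over all genes tested.

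Among 19 genes of fatty acid uptake, storage and lipolysis, 2 were higher against sEVNORM (G0s2 and Pnpla3) and 1 against sEVCTRL (Slc27a6), with medians of 0.12 and -0.08. Slc27a6 had few counts, 5, 12 and 7 in sEVCTRL, 8, 26 and 18 in sEVNORM, and 39 and 26 in sEVHYP. Pnpla3, a lipid droplet protein and a known target of SREBP-1 and ChREBP, was at 212, 205 and 319 CPM in sEVCTRL, 187, 99.0 and 174 CPM in sEVNORM, and 325 and 351 CPM in sEVHYP. It was higher in sEVHYP than in sEVNORM (log2 fold change 1.14, unadjusted P = 0.00341, called in 17 of 17 alternatives). Against sEVCTRL its log2 fold change was 0.46 (interval -0.20 to 1.12, unadjusted P = 0.147 in edgeR) and did not pass. Pnpla3 was lower in sEVNORM than in sEVCTRL (-0.68, unadjusted P = 0.0303), which did not hold without sEVCTRL replicate 3 (-0.44) or sEVNORM replicate 2 (-0.44). Lpl, which releases fatty acids from circulating lipoproteins, differed by 0.12 against sEVNORM (interval -0.60 to 0.85).

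Fatty acid oxidation gave a single call. Of 27 genes listed, Cpt1a alone passed, and it was lower in sEVHYP in both comparisons. Cpt1a codes for the carnitine palmitoyltransferase that admits long-chain fatty acids to mitochondria and that malonyl-CoA inhibits. It was at 59.6, 61.0 and 56.5 CPM in sEVCTRL, 71.6, 73.4 and 64.5 CPM in sEVNORM, and 46.3 and 42.7 CPM in sEVHYP. Both sEVHYP glands stood below all the other 6, a position that 2.76% of all genes had, while 3.44% stood above all 6 as Mlxipl and Scd2 did. The log2 fold change was -0.65 against sEVNORM (SE 0.14, interval -0.97 to -0.33, unadjusted P = 0.00134, called in 17 of 17 alternatives). Against sEVCTRL it was -0.41 (SE 0.14, unadjusted P = 0.0182), and this call was lost without sEVHYP replicate 1 (-0.46) or sEVHYP replicate 2 (-0.36), and with edgeR on only the 2 groups compared (-0.41). The median over the 27 genes was 0.15 against sEVNORM and 0.08 against sEVCTRL, so the list as a whole did not follow Cpt1a.

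The glands differed in tissue content. The summed CPM of 16 white adipocyte markers was 18034 to 26402 in sEVCTRL, 15181 to 26365 in sEVNORM, and 17589 and 31354 in sEVHYP. None of the 16 passed in any comparison. The sEVHYP gland with the higher sum of synthesis genes had the lower adipocyte sum of the pair, and sEVCTRL replicate 2, with 25210 CPM of adipocyte markers, had the lowest sum of synthesis genes. Other libraries ran the opposite way: sEVCTRL replicate 3 had the highest sum of synthesis genes (33553 CPM, Scd1 included) with 26402 CPM of adipocyte markers, and sEVNORM replicate 2 a low sum (14584 CPM) with the lowest adipocyte sum. Fasn CPM was 1.43, 0.294 and 1.16 times that of the adipocyte hormone Adipoq in sEVCTRL, 1.21, 1.23 and 0.671 times in sEVNORM, and 3.38 and 0.918 times in sEVHYP. With the adipocyte marker level as a covariate, 3 members passed between sEVHYP and sEVNORM and 1, Mlxipl, between sEVHYP and sEVCTRL. The 15 skeletal muscle markers summed to 866 to 11875 CPM in sEVCTRL, 56.1 to 3944 CPM in sEVNORM, and 6109 and 16695 CPM in sEVHYP. In both sEVHYP libraries 13 of them stood above all sEVNORM libraries, a position that 12.3% of all genes had. Fitted levels were higher in sEVHYP for 14 of the 15 against sEVNORM (median log2 fold change 2.36) and for 13 against sEVCTRL (median 1.02). Of the 15, 1 (Des) passed against sEVNORM, beside 2.25% of all genes that were higher. Against sEVCTRL, 0 stood above all libraries and 0 passed. With the muscle level as a covariate, 4 members passed against sEVNORM (Mlxipl, Acly, Scd2 and Elovl6) and 3 against sEVCTRL (Mlxipl, Acly and Elovl6). The share of all genes that passed in the adipocyte and muscle covariate fits is not given here, so these member counts have no background beside them. The part of tissue content in the differences of the members was not tested. The 10 brown adipocyte markers summed to 71.7 and 103 CPM in sEVHYP and to 40.5 to 63.9 CPM in the other libraries. Of 9 tested, 9 had higher fitted levels in sEVHYP in both comparisons, with median log2 fold changes of 0.69 against sEVNORM and 0.48 against sEVCTRL. Over all genes, 47.0% and 47.5% were higher. On the unadjusted P, 1 (Cox7a1) passed against sEVNORM, beside 2.25% of all genes, and 2 (Dio2 and Ucp1) against sEVCTRL, beside 1.39%. The part of the brown adipocyte markers in the results was not tested. The Ucp1 call rests on sEVHYP replicate 2, since its counts were 4, 0 and 0 in sEVCTRL, 1, 46 and 7 in sEVNORM, and 7 and 115 in sEVHYP. Without sEVHYP replicate 2 the Ucp1 difference against sEVCTRL did not pass (log2 fold change 2.15). Luminal and basal epithelial markers were present in all libraries, at 1115 to 2412 and 399 to 630 CPM in sum.

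Milk and immune markers were compared in the same way. Milk and alveolar markers summed to 823 to 927 CPM in sEVCTRL, 1030 to 1333 CPM in sEVNORM, and 816 and 693 CPM in sEVHYP, so both sEVHYP libraries lay below all others. Of 8 tested, 8 had negative values in sEVHYP against sEVNORM (median log2 fold change -1.07) and 3 of these passed (Btn1a1, Glycam1 and Csn1s2a), beside 1.70% of all genes that were lower. Against sEVCTRL 6 had negative values (median -0.34), and between sEVNORM and sEVCTRL 8 had positive ones (median 0.92), with 0 passing in either. Wap and Olah, the thioesterase that ends fatty acid chains early in the lactating gland, were at 0 in every library, a count that allows up to 3 counts per library. The 12 B and T lymphocyte markers summed to 1063 to 2327 CPM in sEVCTRL, 1179 to 2485 CPM in sEVNORM, and 1678 and 819 CPM in sEVHYP. All 12 had negative log2 fold changes in both comparisons of sEVHYP (medians -0.36 against sEVNORM and -0.29 against sEVCTRL), and 0 passed. The 12 myeloid markers summed to 1556 to 1814 CPM in sEVCTRL, 1835 to 1863 CPM in sEVNORM, and 1722 and 1243 CPM in sEVHYP, and of the 10 with negative values against sEVNORM, S100a8 and S100a9 passed, while 0 passed against sEVCTRL. The part of the milk and immune markers in the results was not tested.

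**Figure D5:**
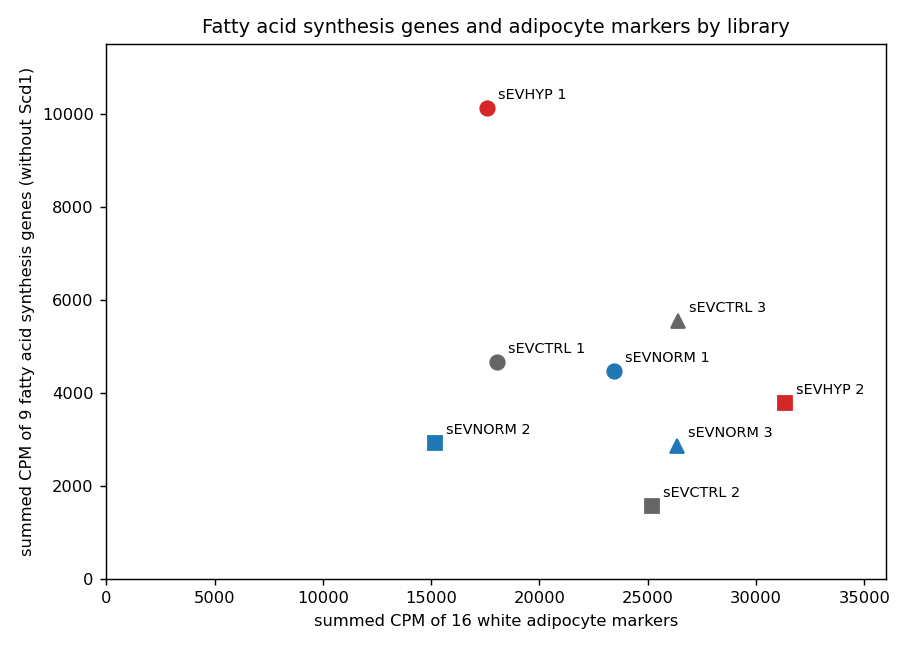
Summed CPM of 9 fatty acid synthesis genes without Scd1 (vertical axis) against the summed CPM of 16 white adipocyte markers (horizontal axis), with 1 labelled point per library. The first sEVHYP library has 10121 CPM of synthesis genes at 17589 CPM of adipocyte markers, and the second has 3789 CPM at 31354 CPM, within the range of the other 6 libraries on the vertical axis.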

How the data were processed

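Whole mammary glands gave 8 RNA libraries, 3 for sEVCTRL, 3 for sEVNORM and 2 for sEVHYP, grouped by their labels. Libraries were made from poly(A) RNA with a strand-aware kit (Lexogen SENSE), and whether counting used the strand is not given in the sources used here. Reads had been mapped to mm10 (GRCm38) by STAR, and the authors deposited estimated counts per Ensembl gene from RSEM 1.2.12, here all whole numbers. How the expected counts were made whole is not stated. Names and positions are from GENCODE on GRCm38, and promoters from RefSeq.

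Tests were two-sided quasi-likelihood F-tests of edgeR 4.0.16 (R 4.3.3) in a single model of 3 groups after TMM scaling, with filterByExpr at a minimum of 10 counts and Benjamini-Hochberg adjustment over 17858 genes. Residual degrees of freedom were 5, prior ones 4.08, and the biological coefficient of variation was 0.297. Log2 CPM used a prior count of 2. Floors of 3 counts cover counting error only. No 2 libraries of the same group were duplicates. The procedure was tested on simulated data. Alternatives were DESeq2 1.42.0, its size factors, other filters, fewer groups, a replicate block, marker covariates and each library left out. With a sEVHYP library left out, the other is assumed to vary as the remaining groups do.

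Named are the members, 20 genes set by name, up to 4 called genes with the largest change per list and comparison (not all are printed), and the 8 nearest profiles. The members and lists were chosen with earlier results of these data known.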

Additional observations from a re-analysis of the deposited data

How the results depend on the processing

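The number of members past an unadjusted P of 0.05 depended on the analysis. Between sEVHYP and sEVNORM it was 3, and became 7 with DESeq2 on only the 2 groups compared, 5 with edgeR on those groups, 7 with no filter on low counts and 5 with a replicate block. Leaving out 1 library gave 1 to 6, and the median log2 fold change was then 0.21 to 1.31. Between sEVHYP and sEVCTRL the count was 2, and became 1 with edgeR on the 2 groups, 5 with no filter, 5 with the replicate block and 1 with the adipocyte covariate, or 0 to 5 without 1 library. Between sEVNORM and sEVCTRL it was 0, and became 1 with DESeq2 size factors, with no filter and with the replicate block (Mlxipl in each), or 0 to 2 without 1 library. The share of all genes that passed in each alternative is not given here. These changes in the count therefore describe the settings and are not a result about the members.

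Of 137 other genes of the pathway listed, not all of which were tested, 21 passed between sEVHYP and sEVNORM. The number was 32 with the replicate block, 14 with the skeletal muscle covariate and 11 to 26 without 1 library. Between sEVHYP and sEVCTRL 10 passed, 22 with the block, 18 with the adipocyte covariate and 5 to 25 without 1 library. Between sEVNORM and sEVCTRL 3 passed, 5 with no filter, 7 with the adipocyte covariate and 1 to 10 without 1 library. In the main fit, 2.25% of all genes tested were higher and 1.70% lower in sEVHYP than in sEVNORM. Against sEVCTRL these shares were 1.39% and 1.06%, and between sEVNORM and sEVCTRL 1.62% passed in either direction. The shares in the alternatives are not given here. The causes of the changes in these counts were not tested.

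Signs turned for members that had not passed. Without 1 library, the log2 fold change between sEVHYP and sEVNORM ranged from -0.43 to 1.93 for Elovl6 and from -0.04 to 1.72 for Me1. Between sEVHYP and sEVCTRL it ranged from -0.06 to 1.07 for Acaca, -0.14 to 1.05 for Fasn, -0.58 to 0.08 for Scd1, -0.51 to 1.83 for Elovl6 and -0.11 to 1.63 for Me1. Between sEVNORM and sEVCTRL it ranged from -0.43 to 0.33 for Acly, -0.64 to 0.16 for Acaca, -0.33 to 0.23 for Acacb, -0.65 to 0.25 for Fasn, -0.51 to 0.21 for Elovl6, -0.45 to 0.21 for Me1 and -0.68 to 0.06 for Thrsp. With the replicate block, the sEVNORM and sEVCTRL difference was 0.08 for Acly, 0.03 for Fasn, 0.26 for Elovl6 and 0.10 for Me1, and with the adipocyte covariate it was 0.03 for Acacb.

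Same-numbered libraries did not deviate together in every pair (correlations of -0.416 to 0.369). Deviations within a group sum to 0, and the 2 sEVHYP libraries mirror each other. These values therefore cannot decide whether replicate numbers pair the samples, and the block is only an alternative. The 2 sEVHYP libraries stood apart. In both sEVHYP comparisons, the intervals of Acaca, Fasn, Elovl6, Me1 and Thrsp hold both no difference and a difference of several times. Those of Scd1 (-0.59 to 0.96) and Acacb (-0.24 to 1.20) against sEVNORM hold no difference and are narrower. Exact permutation of 2 against 3 libraries cannot go below 0.1.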
